A study of Mus musculus with 8 samples.

Results

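Loss of claudin-7 in the large intestine of newborn mice was examined on 4 single-colour arrays out of the 8 arrays of the series, chosen by their titles, which name the genotype and the segment. The comparison had 2 arrays per group: large intestine of wild-type (WT) pups, replicates 2 and 3, and large intestine of claudin-7 knockout (KO) pups, replicates 2 and 3. All pups were of strain 129SV, 3 days of age and untreated, and the series title gives gene targeting as the way the knockout was made. The RNA came from 2 cm fragments of whole bowel, so every layer of the wall contributed to it. The other 4 arrays, of small intestine from WT and KO pups of the same age and strain, entered the choice of genes tested, the estimate of spread and 1 comparison. The labels do not say whether samples shared an animal, so the p-values measure the spread between these arrays, and their number limits the precision.

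Claudin-7 is a tight junction claudin that, unlike most of its relatives, also lines the lateral and basal membrane of intestinal epithelial cells, where it is found with EpCAM and integrins. The large intestine of a suckling mouse absorbs salt and water and renews its surface from crypts, and its epithelium holds absorptive colonocytes, goblet cells and rare secretory types. Damage to this surface is known to bring neutrophils and macrophages, antimicrobial proteins and genes of cornified epithelia that the resting gut hardly uses.

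All signals are given as log2 of the array signal relative to the 75th percentile of that array, in the order WT replicate 2, WT replicate 3, KO replicate 2 and KO replicate 3. Differences are KO minus WT on that log2 scale with their standard error (SE), with n = 2 arrays per group, and folds are their linear form. The word "passed" stands for an adjusted p below 0.05 in limma, with Benjamini-Hochberg adjustment over 20119 genes. "Well above background" is the scanner's own call, and where both arrays of the dimmer group lacked it the fold is a lower bound, set against the lowest signal with that call. These bounds hold for the scanner's own background subtraction only: under normexp background correction the bounds of all 12 named genes that passed with one exceeded the fold, and 25 of 51 named genes that passed had a fold over 1.5 times smaller. In the deposited normalized table the same was true of 5 of the 12 bounds and 17 of the 51 genes. Levels of different genes are not compared, since each probe has its own response.

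The tissue label was checked first. Hoxb13, a homeobox gene of the hindgut, read 5.50, 5.31, 5.91 and 5.93 on the large intestine arrays and between -8.86 and -5.12 on the 4 small intestine arrays. Hoxd13 read 1.69 to 2.63 in large and -8.15 to -5.85 in small intestine, so both genes marked the 4 arrays as hindgut.

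The targeted gene was strongly reduced. Cldn7 read 5.70 and 5.56 on the WT arrays and 2.08 and 2.16 on the KO arrays. Both KO values lay far below both WT values and the replicates of a genotype stood close together. The signal fell by 3.52 ± 0.39 on the log2 scale, which is 11.4-fold (limma adjusted p = 0.0341), and it stayed well above background on both KO arrays. Without WT replicate 2 the difference was -3.45 (adjusted p = 0.121), without WT replicate 3 it was -3.59 (0.256), without KO replicate 2 it was -3.48 (0.0764) and without KO replicate 3 it was -3.56 (0.0619), so its size held while the call did not. The call was also lost, narrowly, without either WT small intestine array, while the difference stayed at -3.52. These arrays enter the estimate of spread and the choice of genes tested (20318 and 20625 without them, against 20119). The only Cldn7 probe lies on chromosome 11 at chr11:69781255-69781314 of mouse build mm9, and whether it falls in the deleted part is not stated in the sources used here. The first 30 of its 60 bases are shown because they identify what this check of the genotype measured.
Cldn7 probe: aaaggcctcctggccactccacctccaaac

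Liver and pancreas genes were high on some large intestine arrays and low on others of the same genotype. Alb, encoding serum albumin, read -4.70, -4.53, 5.23 and -5.06. Ahsg, encoding the liver glycoprotein fetuin-A, read -9.45, -6.13, 6.63 and -4.39, and Igfbp1, a liver binding protein of insulin-like growth factors, read -7.19, -6.59, 3.93 and -6.19. KO replicate 2 was by far the highest array for all 3 genes. KO replicate 3 was the lowest array for Alb and lay above both WT arrays for Igfbp1 and Ahsg, and without KO replicate 2 the Ahsg difference was 3.39 (limma adjusted p = 0.493). Of 39 hepatocyte genes measured, 26 read at least 4-fold higher on KO replicate 2 than on each of the other 3 arrays, and 129 genes of all kinds did so. The summed signal of the hepatocyte list, in multiples of the 75th percentile, was 93.9 and 120.1 on the WT arrays, 508 on KO replicate 2 and 97.2 on KO replicate 3.

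The pancreatic signal had another layout. Amy2a5, a pancreatic amylase, read 2.30, -6.28, -3.86 and 2.05, and the trypsinogen Try4 read 1.26, -5.78, -6.70 and 1.61. Ctrb1, encoding chymotrypsinogen, read 2.06, -3.31, -3.83 and 2.09. These genes were high on WT replicate 2 and KO replicate 3, 1 array of each genotype. Of the 17 genes that read at least 4-fold higher on these 2 arrays than on the other 2, 14 belong to the pancreatic acinar list of 33 measured genes.

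**Figure D1:**
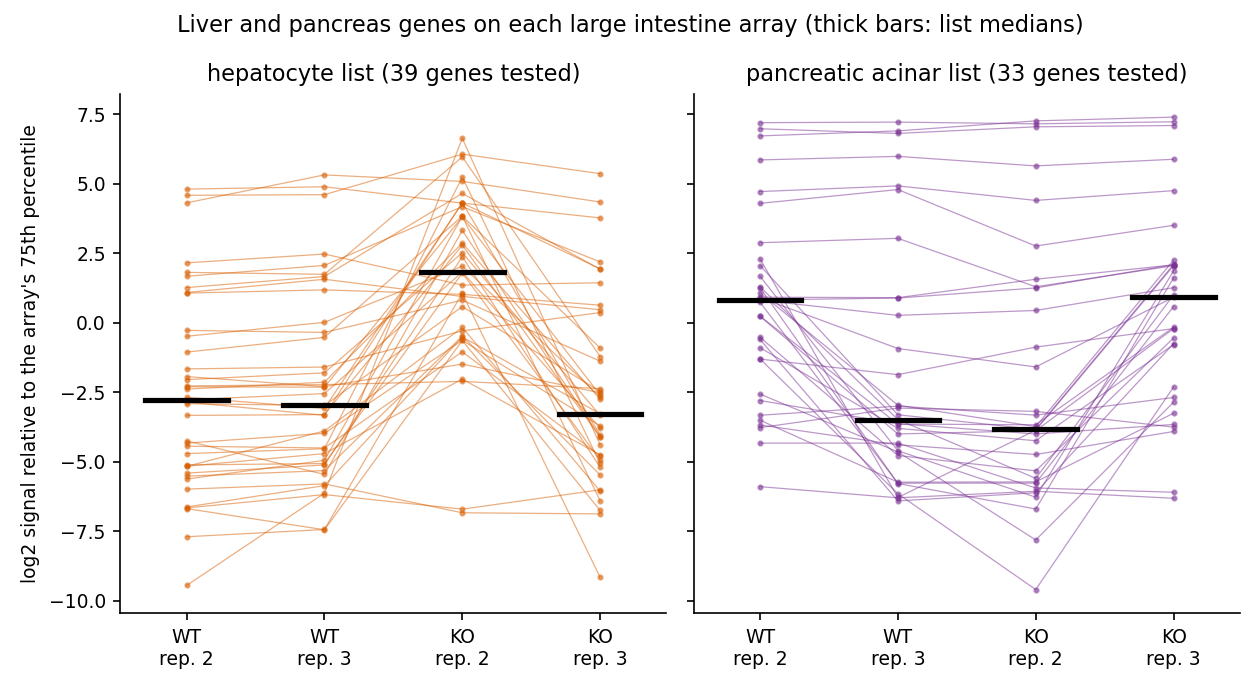
Log2 signal relative to the array's 75th percentile on each large intestine array (x axis) for the 39 hepatocyte genes (left) and 33 pancreatic acinar genes (right) measured. Each thin line joins the 4 values of 1 gene and thick bars are list medians; the hepatocyte genes peak on KO replicate 2, and many acinar genes are high on WT replicate 2 and KO replicate 3.

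A mean difference of at least 4-fold was found for 371 genes, of which 225 were higher in KO. In 62 of these 225, KO replicate 2 alone read at least 4-fold above each of the other 3 arrays, and 16 of those 62 are hepatocyte genes. None of the 62 passed the test. Their wide difference between the KO arrays widens the error, so this outcome was nearly fixed by how they were picked. No gene of the hepatocyte or acinar list passed in either direction, and many of these also differed widely between arrays of 1 genotype. Ahsg, with a mean difference of 8.90 ± 3.45, had an adjusted p of 0.349 in limma, and Alb, at 4.70 ± 2.83, had 0.511. KO replicate 3 also stood apart in sex chromosome genes: Xist, transcribed from the inactive X chromosome, read -6.86, -7.46, -6.60 and -2.43, and the Y-linked Ddx3y read 0.83, 1.28, 0.96 and -9.00. KO replicate 3 of small intestine showed the same, with Xist at -2.42 and Ddx3y at -8.47.

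**Figure D2:**
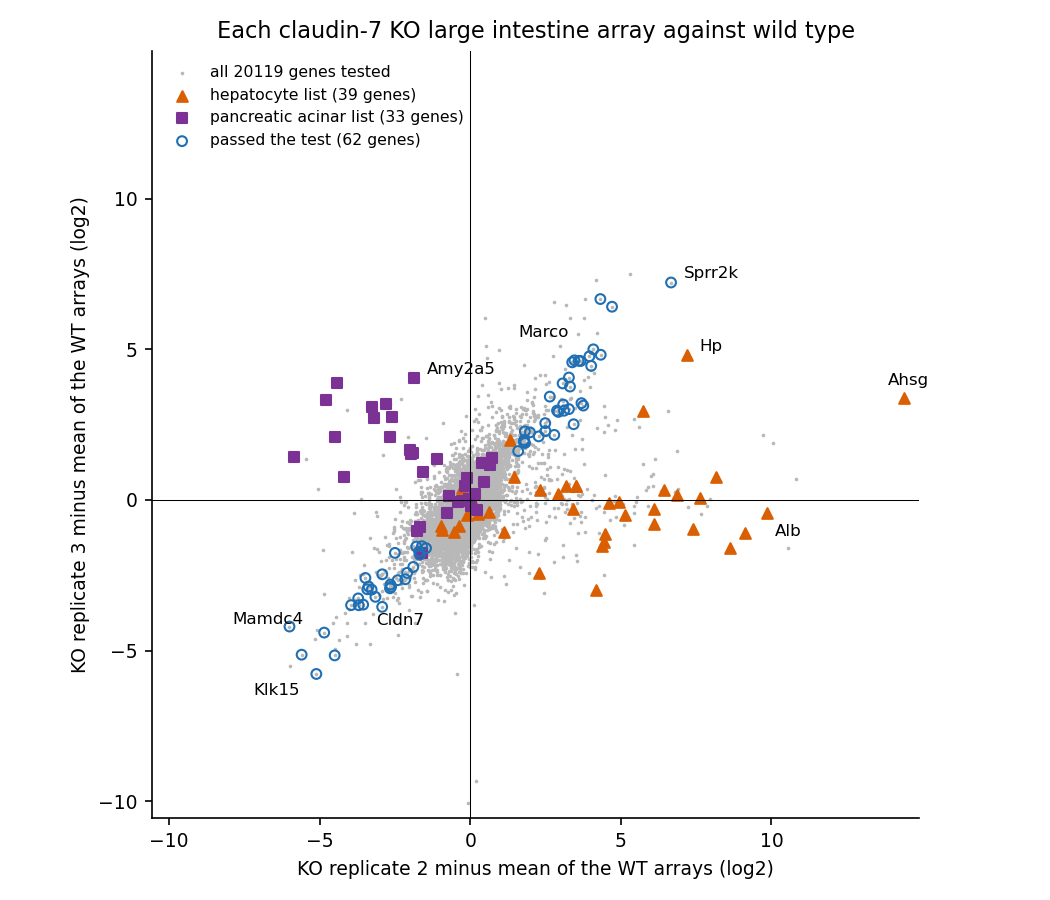
Difference of each KO large intestine array from the mean of both WT arrays (log2), KO replicate 2 on the x axis and KO replicate 3 on the y axis, for 20119 genes (grey). Circles mark the 62 genes that passed, which lie along the diagonal, in part because the test favours genes whose replicates lie close together. Triangles mark hepatocyte genes, most of which extend along the x axis. Squares mark pancreatic acinar genes, many of which lie high on the y axis and low on the x axis.

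Of 20119 genes tested, 62 passed (0.308%), 33 of them higher (0.164%) and 29 lower (0.144%) in KO. In all 62 the KO arrays lay outside the range of the WT arrays. The 2 KO arrays differed by a median of 0.45 and at most by 2.35 (Sprr2d) among them, against a median difference between genotypes of 3.13. Such closeness is in part built in, since the test favours genes whose replicates lie close together. Of the 33 genes that rose, 9 read higher on KO replicate 2, the array with the liver signal, than on KO replicate 3. The calls depended on single arrays: leaving out WT replicate 3 left 0 genes passed in limma (1217 at an unadjusted p under 0.05), leaving out WT replicate 2 left 31, and leaving out KO replicate 2 or 3 gave 69 and 151. All 62 kept their direction in each of these fits. On the same probe this could not come out otherwise, since no KO array overlapped a WT array in these genes. A looser description needs no estimate of spread: both KO arrays lay at least 2-fold above both WT arrays in 293 genes (1.46%) and at least 2-fold below in 304 (1.51%).

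**Figure D3:**
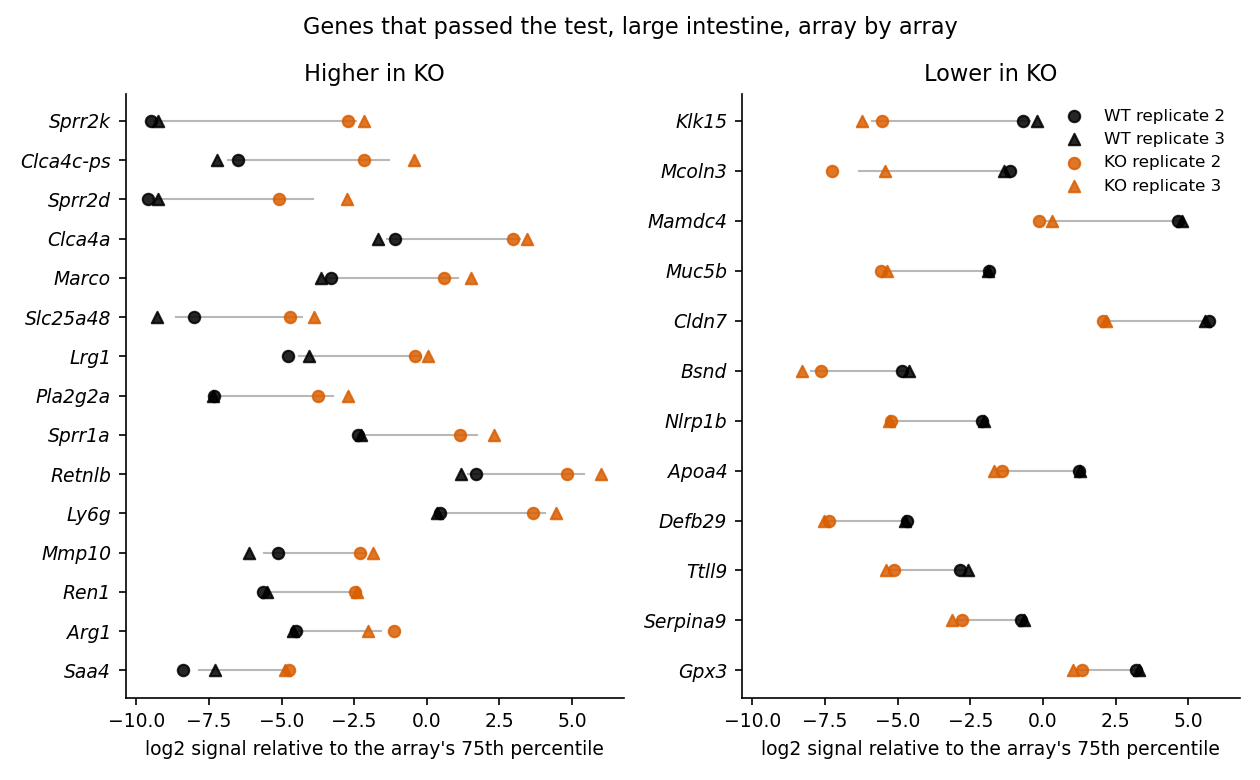
Log2 signal relative to the array's 75th percentile for 15 of the 33 genes that were higher in KO (left) and 12 of the 29 that were lower (right). Black symbols are WT arrays, orange symbols KO arrays, circles replicate 2 and triangles replicate 3, and grey lines join the group means; the genotypes do not overlap for any gene shown, and Sprr2d and Mcoln3 have the widest spread between the KO arrays.

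Sprr2k, Sprr2d and Sprr1a, genes of cornified epithelium, rose. Sprr2k encodes a small proline-rich protein, a family that is crosslinked into the cornified envelope of stratified epithelia. It read -9.51, -9.26, -2.72 and -2.16, with neither WT array well above background. Sprr2k rose at least 28.1-fold (6.94 ± 0.35, adjusted p = 0.00386), and by 3.42 under normexp correction. Its relative Sprr2d read -9.59, -9.26, -5.10 and -2.75 and rose at least 10-fold (5.49 ± 0.72, adjusted p = 0.0491), with the KO arrays far apart, and 4.43-fold under normexp correction. Sprr1a, a further envelope precursor, read -2.37, -2.27, 1.14 and 2.31 and rose by 4.05 ± 0.49, or 16.5-fold (adjusted p = 0.0394). Sprr2h read -6.02, -6.25, -0.84 and 1.38, a difference of 6.40 ± 1.10 with an adjusted p of 0.104, so it did not pass although its genotypes did not overlap. All 4 genes were higher on KO replicate 3 than on KO replicate 2. Among 22 keratin and cornified envelope genes measured, Sprr1a, Sprr2d and Krt20 passed. In the same list 11 had both KO arrays above both WT arrays (27.6% of all genes tested did) and 2 had both below (27.7% did).

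The probes of these relatives differ, which bears on whether their rises are separate measurements. Both probe starts are shown for comparison, and over their full 60 bases the Sprr2k and Sprr2d probes share no run longer than 5 bases.
Sprr2k probe: caggagtgagacaattctcactgatgtttc
Sprr2d probe: ttgccaaaaactctcaatcacctttggttt

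The 4 Sprr genes read together, so the 250 bases before each start (RefSeq, build GRCm38.p6, 5′ to 3′ along the gene) were searched for the 7 letters TGAGTCA and their reverse complement TGACTCA, the consensus of the AP-1 transcription factors, on both strands. The motif was chosen after the values were seen. Matches are in capitals. The windows are chr3:92432332-92432581 (Sprr2k, plus strand), chr3:92338890-92339139 (Sprr2d, plus), chr3:92385435-92385684 (Sprr2h, plus) and chr3:92485882-92486131 (Sprr1a, minus).
Sprr2k promoter: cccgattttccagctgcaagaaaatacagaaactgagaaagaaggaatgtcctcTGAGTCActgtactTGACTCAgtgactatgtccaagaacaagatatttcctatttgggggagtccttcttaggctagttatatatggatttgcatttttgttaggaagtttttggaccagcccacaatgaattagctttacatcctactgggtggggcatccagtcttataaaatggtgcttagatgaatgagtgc
Sprr2d promoter: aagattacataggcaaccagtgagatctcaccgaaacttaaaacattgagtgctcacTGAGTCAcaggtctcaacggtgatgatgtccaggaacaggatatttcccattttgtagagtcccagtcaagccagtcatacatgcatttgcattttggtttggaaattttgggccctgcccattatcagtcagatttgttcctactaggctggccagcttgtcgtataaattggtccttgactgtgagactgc
Sprr2h promoter: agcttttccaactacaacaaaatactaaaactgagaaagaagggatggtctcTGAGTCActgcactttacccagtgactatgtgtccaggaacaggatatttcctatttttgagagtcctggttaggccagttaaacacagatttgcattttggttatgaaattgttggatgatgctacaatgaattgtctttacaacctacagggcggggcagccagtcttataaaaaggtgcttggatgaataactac
Sprr1a promoter: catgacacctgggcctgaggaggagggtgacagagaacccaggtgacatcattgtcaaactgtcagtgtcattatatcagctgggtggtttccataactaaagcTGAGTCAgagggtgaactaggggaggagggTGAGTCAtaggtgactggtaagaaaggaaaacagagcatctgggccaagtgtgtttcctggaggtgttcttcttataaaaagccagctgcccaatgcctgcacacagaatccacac
Sprr2k holds 2 matches, which begin 196 and 182 bases before the start, and Sprr1a holds 2, at 146 and 116 bases. Sprr2d and Sprr2h hold 1 match each, at 193 and 198 bases. The same letters stood in 4.46% of 32851 promoter windows of this length. Of the 33 genes that rose, 25 had an entry and 6 of them held a match (Gzmb, Mmp10, Ms4a12, Sprr1a, Sprr2d and Sprr2k). Sprr1a, Sprr2d and Sprr2k are among the genes that prompted the search, so this count is in part built in. Of the 29 that fell, 0 of 19 with an entry held a match. A match describes the letters only and says nothing of binding.

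Genes of the surface epithelium were higher in KO. Clca4a, a member of the chloride channel accessory family of surface enterocytes, read -1.09, -1.67, 2.95 and 3.44 and rose by 4.57 ± 0.44, or 23.8-fold (limma adjusted p = 0.0263). Its neighbour Clca4b read 2.85, 2.47, 5.30 and 6.09 and rose 8.19-fold (3.03 ± 0.34, adjusted p = 0.0341), and the pseudogene Clca4c-ps read -6.49, -7.22, -2.15 and -0.44 and rose by 5.56 ± 0.62 (0.0341). The 3 probes of this gene family share no run longer than 6 bases. Clca4b and Clca4c-ps are on no gene list, and all 3 genes read higher in WT small than in WT large intestine. In WT small intestine Clca4a read 1.90 and 2.97, Clca4b 5.99 and 6.38 and Clca4c-ps -6.08 and -4.95. In KO small intestine Clca4a and Clca4c-ps rose as well (limma adjusted p = 0.0361 and 0.0491), while Clca4b did not pass (0.328). Ms4a12, a colonocyte surface protein, read -3.31, -3.52, -1.14 and -1.31 and rose 4.56-fold (2.19 ± 0.22, adjusted p = 0.0276). Krt20, the keratin of mature surface cells, read 4.12, 4.14, 5.94 and 6.41 and rose 4.12-fold (2.04 ± 0.25, 0.0414).

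Other members of the colonocyte list had differences that did not pass. Car1, a carbonic anhydrase of colonocytes, read 3.57, 4.38, 6.05 and 6.86 (2.48 ± 0.40, adjusted p = 0.0892), and Car4, its membrane-bound relative, read 3.22, 3.46, 4.62 and 5.26 (1.60 ± 0.28, 0.105). Slc26a3, the chloride-bicarbonate exchanger of colonocytes, read -1.15, -0.48, -0.42 and 1.59, so KO replicate 2 lay at the level of WT replicate 3 (1.40 ± 0.85, 0.513). Slc9a3, the sodium-proton exchanger of the brush border, read 1.03, 1.17, 3.22 and 3.71 (2.36 ± 0.63, 0.228). Of 28 colonocyte genes measured, 3 passed, all higher, and 20 had both KO arrays above both WT arrays (71.4%, against 27.6% of all genes). The list's median difference was 0.81, with 0.46 on KO replicate 2 and 1.08 on KO replicate 3, beside -0.001 over all genes. In bulk tissue more cells of a type and more RNA per cell cannot be told apart.

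Single genes known from immune cells rose. Marco, a scavenger receptor of macrophages, read -3.31, -3.64, 0.61 and 1.52 and rose 23.3-fold (4.54 ± 0.54, limma adjusted p = 0.0374). Ly6g, a surface protein that marks neutrophils, read 0.44, 0.35, 3.67 and 4.46 and rose 12.7-fold (3.67 ± 0.34, adjusted p = 0.0256). Arg1, an arginase of macrophages and liver, read -4.50, -4.60, -1.12 and -2.04 and rose 7.85-fold (2.97 ± 0.33, 0.0341). Gzmb, encoding granzyme B of cytotoxic lymphocytes, read -4.73, -5.14, -3.15 and -3.01 and rose 3.62-fold (1.85 ± 0.23, 0.0414). In each of these 4 genes the genotypes stood well apart on every array.

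The stefin A family, inhibitors of cysteine proteases carried by myeloid cells and squamous epithelium, rose through 3 members. Stfa3 read -1.62, -2.15, 1.87 and 1.25 and rose 10.9-fold (3.44 ± 0.40, limma adjusted p = 0.0374). Cstdc5 read 0.54, -0.25, 3.42 and 3.16 and rose 8.85-fold (3.14 ± 0.35, 0.0341), and Csta2 read -3.96, -4.70, -1.45 and -1.37 and rose 7.58-fold (2.92 ± 0.30, 0.0307). The Cstdc5 and Csta2 probes hold the same 25 bases, in capitals in the stretches shown, so their signals may not be separate measurements, which was not tested.
Cstdc5 probe, bases 31 to 60: taCTTCTAAGCAGCAAATTCTAAAGTGacc
Csta2 probe, bases 1 to 30: CTTCTAAGCAGCAAATTCTAAAGTGtcctg

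Of 20 neutrophil genes measured, 1 passed, and 15 had both KO arrays above both WT arrays (27.6% of all genes did), with a median difference of 1.97. The median was 2.31 on KO replicate 2 and 1.43 on KO replicate 3. Granule genes of maturing neutrophils followed the array with the liver signal: Ngp, encoding neutrophilic granule protein, read -6.88, -6.35, -0.55 and -5.77, and Mpo, encoding myeloperoxidase, read -4.96, -4.78, -0.22 and -5.52. S100a8, a calcium-binding protein of mature neutrophils and inflamed epithelium, read -0.87, -2.58, 1.91 and 0.93, higher on both KO arrays (3.15 ± 0.65, adjusted p = 0.156). Stfa2l1, a further stefin A member and neutrophil gene, read -1.75, -2.57, 1.19 and 1.21, level on the KO arrays (3.36 ± 0.45, 0.0545). The part of the liver signal in these values was not tested. Of 25 macrophage and dendritic cell genes, 2 passed (Marco and Arg1) and 19 were higher on both KO arrays (76.0%), with a median of 0.39 (0.33 on KO replicate 2 and 0.43 on KO replicate 3). Clec7a, the receptor for fungal beta-glucan on macrophages, read -1.10, -1.55, 0.45 and 0.51 (1.80 ± 0.25, 0.0631). Of 26 T and NK cell genes, Gzmb was the 1 that passed. Both KO arrays were higher for 3 (11.5%, against 27.6% of all genes) and lower for 5 (19.2%, against 27.7%).

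No inflammatory cytokine or chemokine passed. Cxcl5, a chemokine that attracts neutrophils, read -1.45, -2.53, 1.14 and 2.04 (3.58 ± 0.53, limma adjusted p = 0.0706), and Cxcl1, of the same class, read -2.79, -2.65, -0.60 and 0.70 (2.77 ± 0.46, 0.0976). Cxcl2, another, read -9.52, -9.16, -5.53 and -2.66, at least 8.96-fold higher (5.25 ± 0.93, 0.112). Tnf, a central inflammatory cytokine, read -4.23, -3.65, -2.05 and -1.44 (2.20 ± 0.37, 0.0982). Both KO arrays lay above both WT arrays for these 4. The same held for 18 of the 30 genes of the list (60.0%, against 27.6% of all genes). The list's median difference was 0.76.

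Genes of epithelial repair and of the fetal-type gut were higher on both KO arrays in 18 of 24 measured, with a median of 0.79, and 1 passed (Sprr1a). Ly6a, the surface protein Sca-1 of regenerating epithelium, read 2.88, 2.83, 5.50 and 6.26 (3.02 ± 0.46, limma adjusted p = 0.0794). Of 32 cell cycle genes, 20 were higher (62.5%, against 27.6% of all genes) and none lower (against 27.7%) on both KO arrays. Their median was 0.26, and none passed.

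Secreted antimicrobial and acute-phase genes were the next group. Pla2g2a, a phospholipase gene known from Paneth cells, read -7.32, -7.35, -3.74 and -2.72 and rose at least 15.5-fold (4.11 ± 0.36, limma adjusted p = 0.0256), and 4.85-fold under normexp correction. The arrays measure its RNA, and whether these pups make an active enzyme from it was not tested. Retnlb, an antibacterial protein of goblet cells, read 1.69, 1.16, 4.81 and 5.99 and rose 15.7-fold (3.98 ± 0.44, adjusted p = 0.0341). Lrg1, a leucine-rich acute-phase glycoprotein, read -4.78, -4.05, -0.40 and 0.03 and rose 18.8-fold (4.23 ± 0.38, 0.0256). C4b, a complement component, read -0.78, -0.55, 2.12 and 1.49 and rose 5.55-fold (2.47 ± 0.30, 0.0400), and the protease inhibitor Serpina3f read -5.12, -4.55, -2.35 and -2.29 and rose 5.73-fold (2.52 ± 0.30, 0.0374).

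Reg3g, a lectin that kills Gram-positive bacteria, read -0.90, -0.65, 2.39 and 5.71, and its difference of 4.83 ± 0.98 did not pass (limma adjusted p = 0.152), with KO replicate 2 reading 3.31 below KO replicate 3, a difference of -3.31. Lcn2, which withholds iron from bacteria, read -3.26, -2.75, 0.36 and -0.83 (2.77 ± 0.45, 0.0939), and the defensin Defb1 read -6.44, -5.84, -2.24 and -2.06 (3.99 ± 0.84, 0.162). Of 21 epithelial antimicrobial genes measured, 1 passed (Sprr1a, which sits on several lists). Both KO arrays were higher for 14 of the 21 (66.7%, against 27.6% of all genes). Of 15 Paneth and Reg genes, 1 passed and 8 were higher on both KO arrays (53.3%, against 27.6%). None of the 15 was lower on both (27.7% of all genes were).

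Saa4, Upp2, Lrg1 and Arg1 rose and are also known from liver, so their KO arrays were set beside those of Alb. Saa4, a serum amyloid of plasma lipoproteins, read -8.39, -7.29, -4.73 and -4.88 and rose at least 5.47-fold (3.04 ± 0.36, limma adjusted p = 0.0374), but was 2.28-fold higher under normexp correction, where it did not pass (0.0648). Upp2, a uridine phosphorylase, read -9.30, -9.09, -5.51 and -5.99 and rose at least 2.85-fold (3.45 ± 0.34, 0.0276), but was 1.76-fold higher under normexp correction, where it did not pass (0.124). Passing favours genes whose KO arrays lie close together, so a contrast with Alb is in part built into the choice. A liver part in these values was not tested. The KO arrays differed by 0.15 for Saa4, 0.48 for Upp2, -0.44 for Lrg1 and 0.92 for Arg1 (replicate 2 minus replicate 3), while for Alb they differed by 10.29. Hp, encoding haptoglobin, lay between these patterns: it read -2.68, -3.08, 4.30 and 1.94, high on both KO arrays and highest on the one with the liver signal (6.0 ± 0.96, adjusted p = 0.0892). Fetub, a liver protease inhibitor, read -6.62, -5.85, -0.51 and -3.27 (4.35 ± 0.82, 0.126).

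Ren1, encoding renin, the protease that starts the angiotensin and aldosterone cascade of salt retention, had 1 of the most even rises. It read -5.63, -5.50, -2.48 and -2.40 and rose 8.73-fold (3.13 ± 0.18, limma adjusted p = 0.00386). No subunit of the sodium channel that aldosterone controls in colon passed. Scnn1a, the alpha subunit, read 3.08, 2.91, 3.63 and 3.57 (0.60 ± 0.51, adjusted p = 0.623), Scnn1b, the beta subunit, read 0.29, 0.18, -0.12 and -0.17 (-0.38 ± 0.26, 0.550), and Scnn1g, the gamma subunit, read -1.06, -1.69, -1.52 and -1.82 (-0.30 ± 1.60, 0.947). Of 18 genes of the sodium channel and aldosterone list, Ren1 was the 1 that passed.

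The remaining named rises were Mmp10, a matrix metalloproteinase (-5.11, -6.12, -2.30 and -1.85, 11.6-fold, limma adjusted p = 0.0484), Slc25a48, a mitochondrial carrier (at least 7.83-fold, 0.0429, and 3.04-fold under normexp correction), Cwh43, which acts on membrane lipid anchors (7.58-fold, 0.0307), Prdx6-ps2 (4.32-fold, 0.0451), Mxd1, a repressor that competes with MYC (3.70-fold, 0.0466), Dkkl1 (3.62-fold, 0.0341) and Krtap31-2 (3.04-fold, 0.0433). Cwh43 was even on the KO arrays, at -0.53 on each. Olfm4, a crypt base glycoprotein, passed with 2.39 ± 0.22 (adjusted p = 0.0256), yet its values of -9.27, -9.27, -6.78 and -6.98 were well above background on 1 KO array and on no WT array, so no fold is given.

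Mamdc4, Mcoln3 and Apoa4, genes of uptake by the absorptive cell, fell. Mamdc4, encoding the apical endosomal glycoprotein of the suckling gut, read 4.66, 4.79, -0.13 and 0.32 and fell 24.7-fold (-4.63 ± 0.43, limma adjusted p = 0.0256). Mcoln3, a cation channel of endosomes and lysosomes, read -1.14, -1.35, -7.25 and -5.45 and fell 34.4-fold (-5.10 ± 0.52, 0.0307), with 1 of the 2 KO arrays well above background. Its size depended on the probe: the mean of its 2 probes gave -3.27, and the filter for probes well above background on all 4 large intestine arrays left a value of -1.43. Apoa4, an apolipoprotein of fat absorption, read 1.24, 1.29, -1.40 and -1.67 and fell 6.96-fold (-2.80 ± 0.27, 0.0263). It was the 1 gene to pass among 26 measured of small intestine brush border and absorption. On both KO arrays 6 of the 26 were higher (23.1%, against 27.6% of all genes) and 7 lower (26.9%, against 27.7%), with a median of -0.04.

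No gene of the suckling enterocyte list passed. Amn and Cubn form the receptor for vitamin B12 and protein uptake. Amn read 2.62, 2.96, -0.25 and 1.04 (-2.39 ± 0.52, limma adjusted p = 0.170), and Cubn read 2.82, 1.83, -0.22 and 1.44 (-1.71 ± 0.62, 0.328). Fgf15, the hormone by which bile acids signal to liver, read -3.97, -3.36, -7.33 and -6.15 (-3.08 ± 0.56, 0.119). Of 19 suckling enterocyte genes measured, 0 passed in limma at the adjusted threshold (2673 of all genes had an unadjusted p under 0.05), and 12 were lower on both KO arrays (63.2%, against 27.7% of all genes), with a median of -0.53.

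Klk15, Muc5b, Serpina9, Gpx3 and Defb29, which encode secreted proteins, also fell. Klk15, a kallikrein-family serine protease, read -0.68, -0.20, -5.55 and -6.22 and fell 43.6-fold (-5.44 ± 0.37, limma adjusted p = 0.00718). Muc5b, a gel-forming mucin, read -1.87, -1.90, -5.59 and -5.38 and fell 12.1-fold (-3.60 ± 0.21, 0.00386). Serpina9, a serine protease inhibitor, read -0.76, -0.66, -2.80 and -3.13 and fell 4.79-fold (-2.26 ± 0.21, 0.0256). Gpx3, the secreted glutathione peroxidase, read 3.19, 3.3, 1.35 and 1.02 and fell 4.17-fold (-2.06 ± 0.25, 0.0414), and the defensin Defb29 read -4.70, -4.75, -7.37 and -7.53 and fell at least 6.09-fold (0.0358), and 2.03-fold under normexp correction.

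Goblet cells, whose product Retnlb rose, had shares of higher and lower genes not far from those of all genes. Muc2, the main gel-forming mucin of the colon, read 5.10, 4.45, 4.27 and 4.20 (-0.54 ± 0.35, limma adjusted p = 0.544), and Clca1, secreted with it, read 6.57, 6.38, 6.24 and 6.29 (-0.21 ± 0.38, 0.821). Of 25 goblet cell genes, 1 passed. On both KO arrays 6 were higher (24.0%, against 27.6% of all genes) and 9 lower (36.0%, against 27.7%). Their median was -0.13. In the stem cell and crypt list of 22 genes, 10 were lower (45.5%, against 27.7%) and 5 higher (22.7%, against 27.6%) on both KO arrays. Its median was -0.04, and its 1 member that passed, Olfm4, was higher. Lgr5, the receptor that marks stem cells, read 0.47, 0.15, -0.91 and -1.04 (-1.29 ± 0.27, 0.158), and Ascl2, a stem cell transcription factor, read 2.07, 1.74, 1.34 and 0.57 (-0.95 ± 0.30, 0.276).

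Bsnd, the accessory subunit of renal-type chloride channels, read -4.85, -4.61, -7.66 and -8.28 and fell at least 6.06-fold (-3.24 ± 0.37, limma adjusted p = 0.0350), and 2.32-fold under normexp correction. The other named falls were Ttll9, a tubulin-modifying enzyme (5.81-fold, 0.0256, with -1.70 on the log2 scale for the mean of its probes), Mab21l3 (4.38-fold, 0.0429), L3hypdh (3.36-fold, 0.0331), Wfdc15b (3.26-fold, 0.0294) and, as lower bounds, Kcnh6, a potassium channel (at least 2.51-fold, 0.0341), Mrps36-ps1 (at least 2.31-fold, 0.0429), Enpp6 (at least 1.68-fold, 0.0488) and Astl (at least 1.58-fold, 0.0374). Pramel34 fell by 3.13 (adjusted p = 0.0307) on its 1 kept probe, but read 0.90 higher in KO when spots with an outlier flag were kept and 1.01 higher in the deposited normalized table.

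Nlrp1b and Nlrp1c-ps, which fell, neighbour the targeted locus. Nlrp1b, an inflammasome sensor, lies 1.19 Mb from the Cldn7 probe on mm9, read -2.11, -2.03, -5.22 and -5.29 and fell 9.09-fold (-3.18 ± 0.18, limma adjusted p = 0.00386). Nlrp1c-ps, 1.27 Mb away, read -5.27, -5.18, -6.83 and -6.77 and fell 2.97-fold (-1.57 ± 0.19, 0.0374). Together with Cldn7 itself, 3 of the 62 genes that passed lie within 5 Mb of its probe (4.84%), against 201 of all 20119 genes tested (0.999%). Cldn7 is the centre of this window and is counted by construction, and the others are Nlrp1b and Nlrp1c-ps, which neighbour each other. The same 2 genes were lower in KO small intestine, by 1.09 ± 0.18 for Nlrp1b (adjusted p = 0.0294) and by 0.69 ± 0.19 for Nlrp1c-ps (0.0595).

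No other claudin passed. Cldn3, a major claudin of gut epithelium, read 5.58, 5.66, 5.84 and 6.25 (0.43 ± 0.28, limma adjusted p = 0.540), and the leak-forming Cldn2 read 1.76, 1.90, 1.98 and 2.67 (0.49 ± 0.35, 0.567). Cldn4 read -0.56, -0.20, 0.32 and 0.74 (0.92 ± 0.58, 0.529), Cldn15, which forms a sodium pore, read 1.11, 1.31, 0.81 and 0.80 (-0.41 ± 0.24, 0.508), and Cldn1 read -6.44, -6.41, -4.89 and -5.72 (1.12 ± 0.35, 0.278). Of 29 tight junction genes besides Cldn7, 0 passed in limma, and their median was 0.22. Both KO arrays were higher for 12 (41.4%, against 27.6% of all genes) and lower for 3 (10.3%, against 27.7%). Of 21 membrane partner genes, 0 passed in limma, with a median of 0.34 (0.16 on KO replicate 2 and 0.55 on KO replicate 3). On both KO arrays 13 were higher (61.9%, against 27.6%) and 1 lower (4.76%, against 27.7%). Among the partner genes Epcam, the binding partner of claudin-7, read 4.71, 4.82, 4.67 and 5.59 (0.37 ± 0.35, 0.665).

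**Figure D4:**
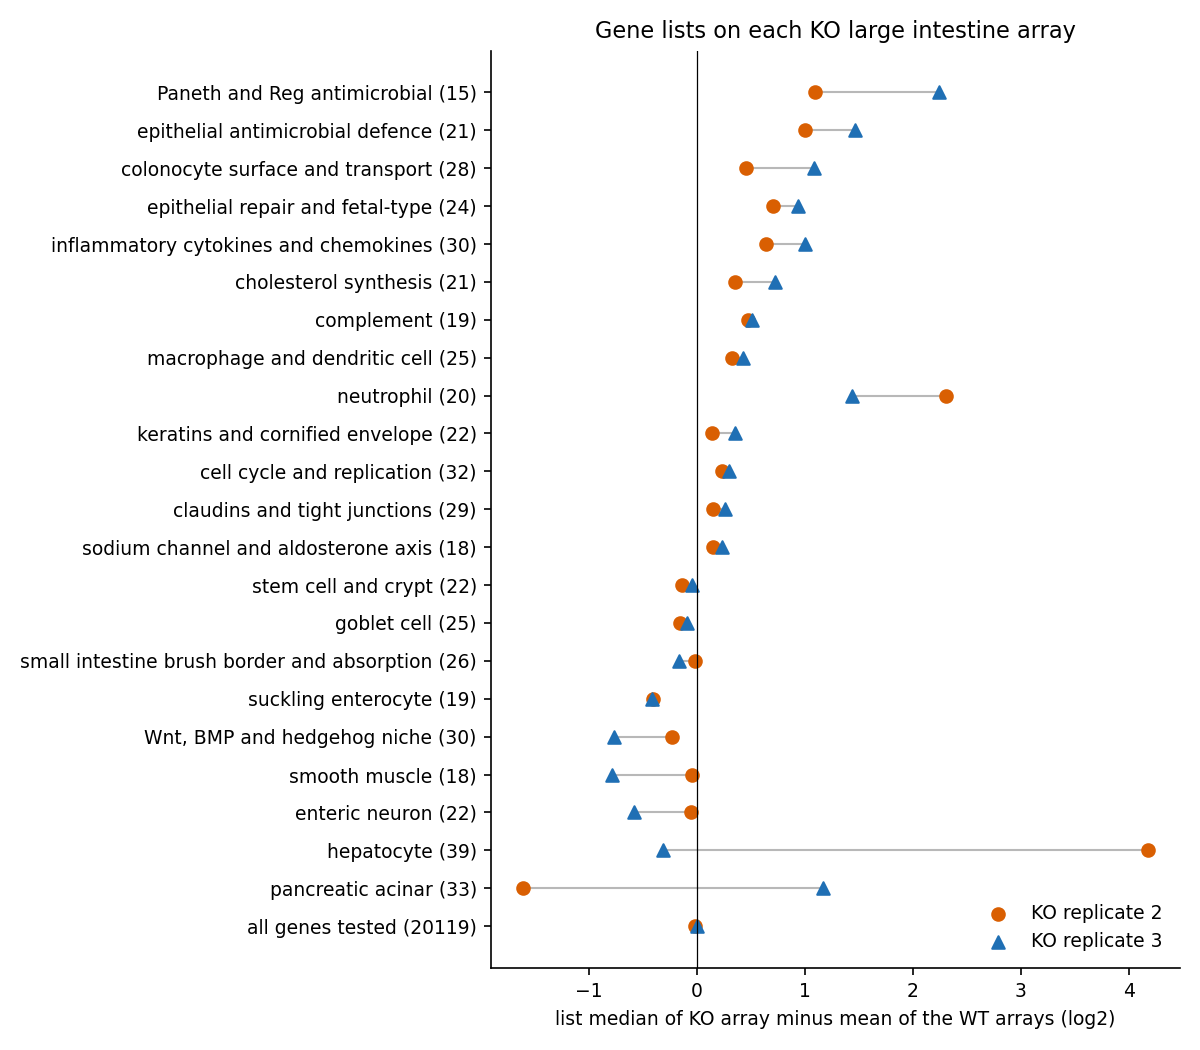
Median difference of each KO large intestine array from the mean of the WT arrays (log2, x axis) for gene lists, with the number of genes measured in brackets. Circles are KO replicate 2 and triangles KO replicate 3; the antimicrobial, colonocyte and neutrophil lists lie above 0 on both arrays, the hepatocyte and acinar lists split between the arrays, and all genes together lie at 0.

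None of the niche, smooth muscle and cholesterol synthesis genes passed. The 30 genes measured of the Wnt, BMP and hedgehog niche had a median of -0.56, and 18 of them were lower on both KO arrays (60.0%, against 27.7%). Bmp4, a mesenchymal signal to crypts, read 3.73, 4.30, 3.23 and 2.62 (-1.09 ± 0.29, limma adjusted p = 0.232), and Shh, an epithelial hedgehog ligand, read -5.71, -5.07, -7.16 and -6.60 (-1.49 ± 0.36, 0.193). The smooth muscle list had a median of -0.04 on KO replicate 2 and -0.78 on KO replicate 3, and the niche list was also lower on KO replicate 3 (-0.77) than on KO replicate 2 (-0.23). Of 22 enteric neuron genes, 9 were lower on both KO arrays (medians -0.05 and -0.58 on KO replicates 2 and 3), as were 10 of 25 fibroblast and 11 of 20 endothelial genes. The part of the lower muscle signal on KO replicate 3 in the niche values was not tested. Cholesterol synthesis genes were higher on both KO arrays in 17 of 21 (81.0%, against 27.6% of all genes), with a median of 0.54.

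Some differences as large as those that passed did not pass, with wider errors. Smcp, a sperm mitochondrial protein, read 1.35, 1.0, -3.98 and -3.45 (-4.89 ± 1.04, limma adjusted p = 0.162). Cyp11a1, which makes the first steroid of the steroid hormone pathway, read -0.42, -0.25, -4.69 and -4.99 (-4.50 ± 1.29, 0.248), and Meltf, encoding melanotransferrin, read 4.06, 3.75, -0.94 and 0.79 (-3.98 ± 0.57, 0.0646). The Cyp11a1 replicates lay close together in large intestine, but in small intestine they read -4.45 and -1.35 in WT and -4.73 and -1.23 in KO. Wfdc21 read -6.15, -6.57, -2.26 and -2.14 (4.16 ± 0.60, 0.0663), and Pdx1, a transcription factor of duodenum and pancreas, read -8.92, -9.22, -5.44 and -5.45, at least 3.51-fold higher (3.63 ± 0.64, 0.112). Some genes differed widely between arrays of 1 genotype. Itlnb, an intelectin whose gene is absent from some mouse strains, read -9.46, 1.40, -9.50 and -2.66, its relative Itln1 read -3.59, 3.81, -4.93 and 0.45, and both were higher on replicate 3 of either genotype. In small intestine Itlnb read -6.48 and 4.85 in WT and -1.18 and 1.53 in KO, again higher in replicate 3, while Itln1 was level in KO (4.51 and 4.42). Tert, the telomerase subunit, read -3.92, 4.10, -4.39 and -4.87, high on WT replicate 3 alone.

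The same contrast was made in small intestine, where 1988 genes passed (9.88%), and 27 of the 62 large intestine genes were among them, 23 in the same direction. Both contrasts use the same error for a gene, and passing in large intestine favours a small error, so this overlap is in part built in. In small intestine Pla2g2a rose at least 16.9-fold (limma adjusted p = 0.00341) and Retnlb at least 8.39-fold (0.00799), since neither was well above background on a WT small intestine array. Marco rose by 5.07 ± 0.54 (0.0122) and Cldn7 fell by 4.34 ± 0.39 (0.00802). The difference of the KO effect between segments passed for 28 of 20119 genes (0.139%), 9 of them among the 62. The large intestine difference is itself a term of this test, so that share is in part built in too. Sprr2k (6.72 ± 0.50, adjusted p = 0.0117) and Klk15 (-5.65 ± 0.53, 0.0254) were among the 9, but neither was well above background on any small intestine array, so no KO effect could be measured there and the sizes are not exact. Ms4a12 rose in large and fell in small intestine (-2.46 ± 0.22 there, 0.00799). These segment calls rest on few arrays: leaving out either WT large intestine array left 0 passed in limma (3751 and 3330 at an unadjusted p under 0.05), and leaving out a small intestine array gave 1, 10, 55 or 1066.

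**Figure D5:**
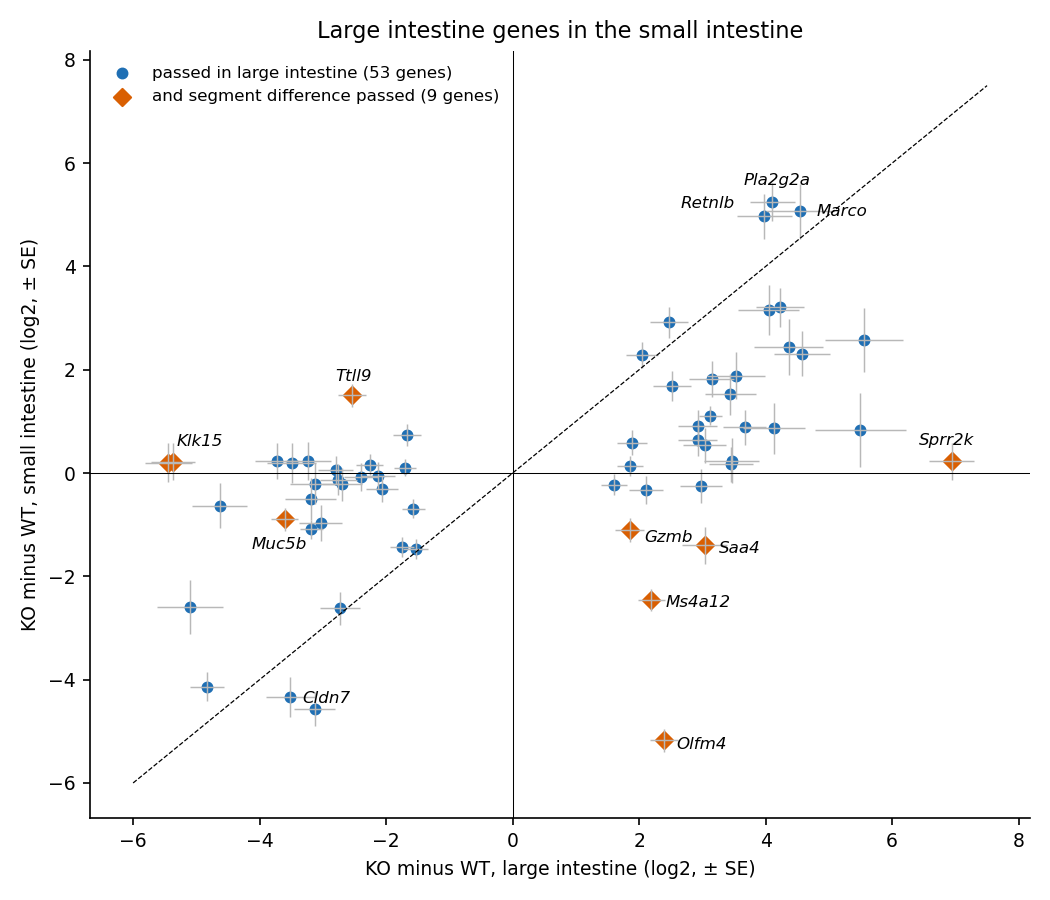
KO minus WT difference (log2, with bars of ± 1 SE) in large intestine (x axis) and small intestine (y axis) for the 62 genes that passed in large intestine. Diamonds mark the 9 genes whose difference between segments passed and the dashed line marks equal differences; Sprr2k and Klk15 lie near 0 on the y axis, where neither was above background, Retnlb and Pla2g2a have y values against WT arrays at background, and Cldn7 and Marco, measured on all 8 arrays, lie near the line.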

How the data were processed

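Total RNA was hybridised in 1 colour (Cy3). Per the file headers, the deposited spot intensity came from Feature Extraction 10.7.3.1 with background and spatial trend removed, but not scaled between arrays, with probes placed on mm9; all 8 arrays lay on 1 slide with 1 group per slide column, so group and column cannot be told apart. R 3.3.0 is named in the submitters' processing notes, and the steps behind the deposited normalized intensity table are not stated there (column medians 158.06 to 160.06; scaling seen, background step unknown).

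From the scanner files, log2 signal minus each array's 75th percentile was taken, flagged spots were dropped, and probes were kept where both arrays of 1 or more groups called them well above background (26117 named probes). The brightest probe stood for each gene (20119). Names came from accessions or symbols through a table of GRCm38.p6 genes. Limma 3.58.1 (R 4.3.3) fitted 1 mean per group over all 8 arrays (4 residual and 2.72 prior degrees of freedom) and was tested on simulated data. An exact permutation test of 2 against 2 arrays cannot go below p = 0.333, so none was used. The labels do not say that numbers pair samples: deviations of same-numbered arrays correlated across genes at r = 0.006 between WT and KO large intestine and at 0.056 to 0.261 between other groups, so pairing was not established and the main fit has no block.

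The members, the 51 gene lists and the rules were chosen with earlier results of these data known. Named genes are Cldn7, the 15 largest rises and falls that passed, the 15 widest gaps each way, up to 4 smallest p per list, all members of the liver, pancreas, claudin, sex chromosome and sodium channel lists, the 10 widest within-group differences and 6 segment differences each way. Other named genes were chosen after their values were seen. Background correction, scaling, filters, flags, probe averaging, prior, arrays fitted, row block and left-out arrays were varied.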

Additional observations from a re-analysis of the deposited data

Results flagged for a closer look

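The KO effect differed between large and small intestine, by limma's test of the difference with Benjamini-Hochberg adjustment, for 16 of the genes named here. Where a gene was not well above background on an array pair, its size is not exact. Values are the large intestine difference minus the small intestine difference on the log2 scale ± SE. Among genes that passed in large intestine, Sprr2k, a cornified envelope gene, differed by 6.72 ± 0.50 (adjusted p = 0.0117) and Olfm4, a crypt base glycoprotein, by 7.56 ± 0.32 (0.00187). Olfm4 fell by 5.17 in small intestine and lay near background in large intestine. Ms4a12 differed by 4.65 ± 0.30 (0.00756), Saa4 by 4.43 ± 0.51 (0.0485) and Gzmb by 2.95 ± 0.32 (0.0449), each higher in KO large intestine and at a negative difference in small intestine, where Saa4 was not well above background on any array. Sprr2k was likewise at background on all 4 small intestine arrays. Klk15, at background on all 4 small intestine arrays, differed by -5.65 ± 0.53 (0.0254), Ttll9 by -4.04 ± 0.32 (0.0148) and Muc5b by -2.70 ± 0.30 (0.0481).

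The remaining 8 genes did not pass in large intestine, which does not show that they were unchanged there. Gsdmcl-ps read -2.21, -2.72, -0.94 and -1.13, with both KO arrays above both WT arrays of large intestine. Gsdmc4 differed by 7.32 ± 0.65 (adjusted p = 0.0244), Gsdmc3 by 7.01 ± 0.79 (0.0485), Gsdmcl-ps by 5.51 ± 0.35 (0.00756) and Gsdmc by 5.49 ± 0.45 (0.0167). These gasdermin C genes had differences of 0.74, 0.20, 1.43 and 0.62 in large intestine and -6.58, -6.82, -4.08 and -4.87 in small intestine. Ccl28, a mucosal chemokine, differed by 4.84 ± 0.33 (0.00880). Mup20, a major urinary protein, differed by -5.24 ± 0.29 (0.00650), Crisp3, not above background on any large intestine array, by -4.25 ± 0.44 (0.0359), and Zg16, a lectin of goblet cell granules, by -3.35 ± 0.37 (0.0449).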

How the results depend on the processing

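The count of genes passed (62, with 33 higher and 29 lower) rose to 122 (56 and 66) with the large intestine arrays alone, and fell to 19 (9 and 10) without a background filter and to 40 (25 and 15) with probes well above background on all 4 large intestine arrays. With the replicate number (equal to the row on the slide) fitted as a block the count was 15 (5 higher, 10 lower), of which 13 were among the 62, and Cldn7 had an adjusted p of 0.0723 with the same difference of -3.52; whether the numbers pair samples was not established (r of same-numbered arrays 0.006 between the large intestine groups, 0.107 to 0.261 in 4 of the other 5 pairs of groups). Without a background filter Cldn7 stayed at -3.52 (0.0576). Leaving out 1 array gave 0 to 151 genes passed, 0 to 131 higher, 0 to 36 lower, and Cldn7 at -3.59 to -3.45. The difference between segments (28) fell to 15 without a filter and ran from 0 to 1066 over the left-out arrays. Genes at least 2-fold apart on every array (597) numbered 305 with normexp correction, 388 with the strict filter, and 970 to 2079 when a large intestine array was left out. Quantile scaling, the deposited table, kept flags, averaged probes, the trended prior, the large intestine filter and removal of liver and pancreas genes kept the count of genes passed within 1.5 times. Pramel34 turned to 1.01 in the deposited table and 0.90 with flags kept. The other 51 named genes that passed kept their direction under every alternative, and 8 of 52 passed under every alternative that left no array out. Leaving out an array could not turn a direction on the same probe, since the genotypes did not overlap in these genes. The cause of these changes was not tested beyond the smaller number of arrays or genes in each fit. Each KO array alone against WT was added after the data were seen. Dim genes are limited by background.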
